A study of Mus musculus with 24 samples.

Results

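Lysosomes are acid organelles in which proteases, glycosidases, lipases and sulfatases take apart proteins, sugar chains and membrane lipids brought in by endocytosis and autophagy. A proton pump built from a cytosolic head and a membrane sector acidifies them, and a coat of glycosylated membrane proteins lines them. The transcription factor TFEB drives many of their genes through an E-box motif, and in brains with amyloid deposits the microglia gathered at plaques are known for high lysosomal content.

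The 43 genes described here are lysosomal enzymes, their inhibitor and cofactors, membrane proteins, regulators and proton pump subunits, taken from a fixed list of mouse symbols in a count table of 56750 entries. All 43 were found and all passed the filter on low counts that left 20354 genes for testing. They were grouped by role into 11 proteases with their inhibitor cystatin C, 9 glycosidases, 9 enzymes and cofactors that handle lipids or sulfates, 6 membrane proteins, 2 regulators (Grn and Tfeb) and 6 subunits of the proton pump.

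RNA was sequenced from the medial prefrontal cortex of mice in 24 libraries, 4 in each of 6 groups named in the sample titles: GH_Con, SI_Con, GH_EE, SI_EE, GH_WT and SI_WT. Every library, including the control groups and the WT arm, has the genotype label 5xFAD, a transgenic line that expresses mutant human APP, among its transgenes, from the neuronal Thy1 promoter. The treatment label is control for GH_Con, SI for SI_Con, EE for both EE groups and WT for both WT groups. SI stands for social isolation and EE for the enriched environment of the series title. GH and WT are not spelled out in the labels, and neither are age and the arm that was resocialized, so the titles are used as written. Whether the 4 libraries of a group are 4 mice is not stated. Each group held libraries marked female and libraries marked male by Xist and Y-linked genes, so they are not all repeats of a single mouse. The tests weigh differences against a spread between libraries that may still be technical in part. In bulk RNA, fewer cells of a type and less RNA per cell cannot be told apart.

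Total counts ran from 33683587 to 51274917 per library, and levels are given as CPM, counts scaled to library size with TMM factors. The table's human APP entry was lowest in SI_EE 1 (337 CPM) and highest in SI_WT 1 (4685 CPM), and both groups of the WT arm carried it, at 2199 CPM or more. SI_EE 1 stood apart: its mean over 4 cerebellar markers was 8.84 log2 CPM, against at most 1.44 in any other library. In GH_WT 2 and GH_WT 4 the mean of 5 thalamic and habenular markers was 4.44 and 4.21 log2 CPM. In 4 libraries (GH_Con 2, SI_Con 2, SI_Con 3 and SI_WT 4) longer genes read lower, with a rank correlation between gene length and level relative to each gene's mean of -0.244 to -0.352, against -0.0973 to 0.199 elsewhere. Results that rest on these libraries are given with and without them. Xist and Y-linked genes marked 12 libraries as female and 12 as male, spread unevenly: 3 of 4 in GH_Con and 1 of 4 in SI_EE were female.

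The E-box bound by TFEB was looked for in the promoters of these genes. RefSeq promoter windows of 300 bases (250 before to 50 after the annotated start, GRCm38.p6) were found for 38 of the 43 genes, and both strands were searched. The E-box CACGTG lay in the windows of 14 of the 38 genes (36.84%), against 8.093% of 27025 genes in the same table. The longer TCACGTG, which contains it, lay in 12 (31.58% against 4.292%). TCACGTGA lay in 6 (15.79% against 1.125%), namely Atp6v0d1, Atp6v1a, Cln3, Ctsa, Ctsd and Mcoln1. The motif GAGGAAGT, of the kind bound by the myeloid factor PU.1, lay in the windows of Ctss and Gusb only (5.263% against 3.689%, close to the background). A match is a description of letters and not a measured binding site.

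Stretches of 270 bases, from 250 before to 20 after the start, are printed for Ctsd, Ctss and Lamp1, because Ctsd and Ctss had the closest relation to microglial markers in the libraries, described further on, and Lamp1 has more E-boxes and a relation that did not pass. They run 5′ to 3′ on the gene's strand, with CACGTG or the GAGGAAGT match (here on the opposite strand) in capitals. The choice of these genes was made after their values were seen.
Ctsd promoter, chr7:142387808-142388077, minus strand: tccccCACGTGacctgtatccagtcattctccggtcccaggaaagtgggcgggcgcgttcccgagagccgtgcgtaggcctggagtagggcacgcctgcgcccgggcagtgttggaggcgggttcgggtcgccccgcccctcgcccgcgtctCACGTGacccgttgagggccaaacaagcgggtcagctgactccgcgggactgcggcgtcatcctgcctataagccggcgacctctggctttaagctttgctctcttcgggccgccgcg
Ctss promoter, chr3:95526536-95526805, plus strand: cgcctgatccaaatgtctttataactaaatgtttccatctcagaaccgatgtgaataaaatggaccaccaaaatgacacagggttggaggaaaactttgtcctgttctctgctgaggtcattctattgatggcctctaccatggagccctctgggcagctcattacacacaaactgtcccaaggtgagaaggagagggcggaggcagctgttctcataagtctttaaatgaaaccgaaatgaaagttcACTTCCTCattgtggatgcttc
Lamp1 promoter, chr8:13158911-13159180, plus strand: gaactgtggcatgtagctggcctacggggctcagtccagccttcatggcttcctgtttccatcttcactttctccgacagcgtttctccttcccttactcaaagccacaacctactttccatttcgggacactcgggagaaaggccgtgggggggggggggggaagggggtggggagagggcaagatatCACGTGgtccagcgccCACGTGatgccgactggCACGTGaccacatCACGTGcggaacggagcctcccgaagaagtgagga
The Ctsd stretch holds the E-box at positions -245 and -98 from the start, that of Lamp1 holds it at -61, -45, -28 and -15, and that of Ctss does not hold it. Bases around the TCACGTGA of the other genes are shown for 4 members of different roles: the membrane protein Cln3, the calcium channel Mcoln1, the protective protein Ctsa and the pump subunit Atp6v0d1.
Cln3, chr7:126583332-126583377, minus strand: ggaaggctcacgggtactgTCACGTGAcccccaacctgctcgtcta
Mcoln1, chr8:3500454-3500499, plus strand: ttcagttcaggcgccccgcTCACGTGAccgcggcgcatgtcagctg
Ctsa, chr2:164833741-164833786, plus strand: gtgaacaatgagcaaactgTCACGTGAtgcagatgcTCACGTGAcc
Atp6v0d1, chr8:105566042-105566087, minus strand: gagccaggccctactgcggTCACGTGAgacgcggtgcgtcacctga
Here the capitals mark TCACGTGA, of which the Ctsa stretch holds 2 copies. All 4 come from the same RefSeq windows.

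Per kilobase of exon, the highest of the 43 levels was that of Psap, the precursor of the saposins that help sphingolipid enzymes, with 575 CPM per kb over the 24 libraries. Cst3, the secreted inhibitor of cysteine cathepsins, followed with 549.5, and the aspartic protease Ctsd with 167 CPM per kb. Among the other proteases the levels per kb were 119 for Ctsb, 58.7 for Ctss, 47.9 for the asparaginyl endopeptidase Lgmn and 31.2 for Ctsz. Ctsa (15.7), the tripeptidyl peptidase Tpp1 (12.1), Ctsl (10.2), Ctsf (7.59) and Ctsh (2.15 CPM per kb) were lower.

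The glycosidases were led, per kb, by the glycogen-degrading Gaa (44.2) and by Hexa (25.8), the alpha subunit of an enzyme that degrades gangliosides. The sialidase Neu1 stood at 13.1, the beta-galactosidase Glb1 at 7.47, the alpha-mannosidase Man2b1 at 5.36 and the beta-glucuronidase Gusb at 3.01 CPM per kb. Lowest in this class were Naglu (2.63), which degrades heparan sulfate, Galc (2.29), which degrades the myelin lipid galactosylceramide, and the beta-mannosidase Manba (1.55 CPM per kb). Among the lipid and sulfate enzymes, below Psap, the acid sphingomyelinase Smpd1 stood at 31.8, the palmitoyl thioesterase Ppt1 at 26.7, the sulfatase Arsb at 17.997, the acid ceramidase Asah1 at 15.9 and the ganglioside activator Gm2a at 15.02 CPM per kb. The cholesterol carrier Npc2 (10.2), the sulfatide-degrading Arsa (6.77) and the acid lipase Lipa (2.70 CPM per kb) closed that class.

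Lamp1, the abundant coat glycoprotein, was the highest membrane protein at 120.1 CPM per kb, and its relative Lamp2 stood at 9.61. Tmem106b had 32.2, the receptor Scarb2, which carries glucocerebrosidase to lysosomes, had 26.7, Mcoln1 had 6.95 and Cln3, lost in juvenile Batten disease, had 1.48 CPM per kb. Progranulin (Grn) stood at 12.4 and Tfeb, the lowest of the 43 genes, at 1.15 CPM per kb. The pump subunits of the head were at 122 (Atp6v1b2), 89.4 (Atp6v1a, the catalytic subunit) and 17.4 CPM per kb (Atp6v1h). Those of the membrane sector were at 121 (Atp6v0d1) and 48.6 (Atp6v0a1), and the accessory subunit Atp6ap1 was at 55.1 CPM per kb.

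The levels were steady between libraries. The coefficient of variation of CPM over the 24 libraries had a median of 12.9% for the 43 genes and 24.1% for all 20354 genes. It was 16.2% for genes with a mean CPM between those of the lowest and highest member. That set was not matched to the members in level. Psap varied least, by 4.31%, and Ctss (31.5%), Naglu (30.6%), Tfeb (27.2%), Ctsh (26.9%) and Ctsz (25.2%) varied most. Of the 43 genes, 14 had their lowest level in SI_EE 1, the library with cerebellar markers, and 12 their highest in SI_WT 4, one of the 4 libraries with lower long genes. The same counts were not made over all genes, so they do not show a trait particular to the 43.

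**Figure D1:**
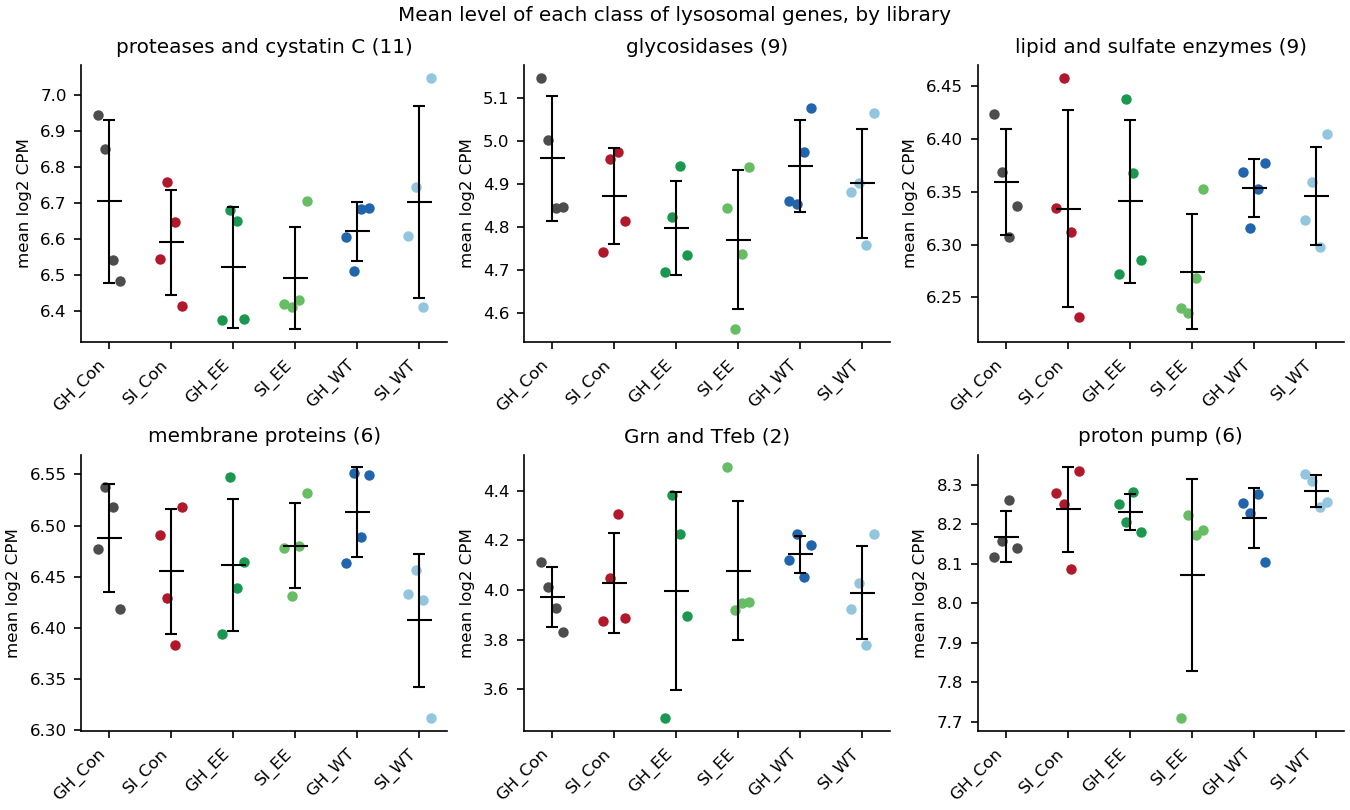
Mean log2 CPM of each class of lysosomal genes (y axis) in the 24 libraries by group (x axis), 1 panel per class; points are libraries, horizontal lines are group means and bars are ± 1 SD over 4 libraries. Group means of the proteases span 6.49 to 6.70, and the lowest proton pump point, 7.71, is SI_EE 1.

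Class means, in log2 CPM with SD over 4 libraries, differed little between the groups, as the plot of class means shows. Proteases averaged 6.70 ± 0.23 in GH_Con, 6.59 ± 0.15 in SI_Con, 6.52 ± 0.17 in GH_EE, 6.49 ± 0.14 in SI_EE, 6.62 ± 0.082 in GH_WT and 6.70 ± 0.27 in SI_WT. Glycosidases ran from 4.77 ± 0.16 in SI_EE to 4.96 ± 0.15 in GH_Con. The lipid and sulfate enzymes ran from 6.27 ± 0.054 in SI_EE to 6.36 ± 0.050 in GH_Con. The ranges of the libraries overlapped between the 2 extreme groups of each of these classes. Membrane proteins ran from 6.41 ± 0.065 in SI_WT to 6.51 ± 0.044 in GH_WT, where the highest SI_WT library (6.457) lay just below the lowest GH_WT library (6.464). Pump subunits ran from 8.07 ± 0.24 in SI_EE to 8.28 ± 0.040 in SI_WT, and SI_EE 1 set the low end, with the other SI_EE libraries at 8.17 to 8.22 and those of SI_WT at 8.24 or more. Over all 43 genes the means ran from 6.19 ± 0.085 in SI_EE to 6.31 ± 0.10 in GH_Con.

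Across the 6 groups together, no lysosomal gene passed. In the F test of edgeR's quasi-likelihood fit, 0 of 43 members had an adjusted p under 0.05 (Benjamini-Hochberg over all genes), against 0.0491% of the 20354 genes tested. At an unadjusted p under 0.05 there were 3 members (Glb1, Galc and Atp6v1h) against 8.23% of genes. DESeq2 gave 6 at that level (11.8% of genes) and limma-voom 3 (7.19%). After adjustment both called 0 members, against 1.06% of genes in DESeq2 and 0% in limma-voom. Below, the levels in every library are given for the 8 members with the smallest F test p and for Ctsd, Ctsb, Ctss, Ctsz, Lamp1, Tfeb, Grn and Psap, by class. Those 8 were picked by p in these same libraries, and none passed. How often the libraries of different groups do not overlap was not counted over all genes. Non-overlap of a gene, a class mean or a marker list is therefore given as a description of the values. It has no background to be judged by and does not show a separation of the groups.

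Among the glycosidases, Glb1 read 25.4, 24.3, 22.8 and 22.8 in GH_Con, 21.8, 24.7, 23.3 and 16.4 in GH_EE, and 22.2, 23.6, 28.1 and 25.9 in GH_WT, in CPM. Glb1 levels in the SI groups were 24.4, 22.8, 22.9 and 23.4 in SI_Con, 15.3, 20.1, 16.5 and 19.98 in SI_EE, and 24.3, 22.6, 21.5 and 24.3 in SI_WT. The SI_EE libraries all lay below those of SI_Con and overlapped GH_EE through GH_EE 4. Glb1 (chr9:114401076-114474898, plus strand) had the smallest p of the 43: its F test gave an unadjusted p of 0.00909 and an adjusted p of 0.426 (edgeR, Benjamini-Hochberg). Galc read 36.3, 37.01, 35.4 and 39.8 in GH_Con, 30.2, 30.5, 35.4 and 32.1 in GH_EE, and 33.1, 32.8, 33.1 and 40.7 in GH_WT, in CPM. Galc levels in the SI groups were 36.5, 33.99, 43.8 and 37.2 in SI_Con, 29.7, 30.6, 33.3 and 33.9 in SI_EE, and 30.4, 29.1, 32.4 and 31.2 in SI_WT. All SI_EE and all SI_WT libraries lay below the lowest SI_Con library, by little for SI_EE, and GH_EE and GH_Con met at 35.4. For Galc (chr12:98202294-98259459, minus strand), its F test gave an unadjusted p of 0.0132 and an adjusted p of 0.473 (edgeR, Benjamini-Hochberg).

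For the beta-glucuronidase, Gusb read 22.6, 17.2, 14.1 and 13.2 in GH_Con, 11.8, 16.5, 14.1 and 11.8 in GH_EE, and 13.1, 12.1, 14.6 and 15.1 in GH_WT, in CPM. Gusb levels in the SI groups were 9.02, 12.2, 12.4 and 9.74 in SI_Con, 12.9, 9.18, 13.1 and 15.6 in SI_EE, and 15.6, 13.6, 11.1 and 17.8 in SI_WT. Every SI_Con library was below every GH_Con library, and GH_Con 1 was the highest of all 24. For Gusb (chr5:129989011-130003049, minus strand), its F test gave an unadjusted p of 0.0642 and an adjusted p of 0.622 (edgeR, Benjamini-Hochberg). Hexa read 61.6, 58.9, 47.6 and 50.9 in GH_Con, 46.9, 51.6, 57.2 and 53.5 in GH_EE, and 49.4, 43.2, 47.9 and 48.3 in GH_WT, in CPM. Hexa levels in the SI groups were 36.3, 54.4, 45.1 and 45.4 in SI_Con, 38.8, 56.6, 54.4 and 55.9 in SI_EE, and 50.2, 62.6, 50.3 and 67.99 in SI_WT. SI_Con overlapped GH_Con and SI_WT, while all SI_WT libraries lay above all GH_WT libraries. For Hexa (chr9:59539540-59565109, plus strand), its F test gave an unadjusted p of 0.139 and an adjusted p of 0.694 (edgeR, Benjamini-Hochberg).

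Of the lipid enzymes, Smpd1 read 98.4, 100.6, 102 and 109 in GH_Con, 108, 110.1, 104 and 100.3 in GH_EE, and 115, 104, 116 and 94.1 in GH_WT, in CPM. Smpd1 levels in the SI groups were 109.8, 121, 117 and 116 in SI_Con, 92.3, 97.4, 97.5 and 109 in SI_EE, and 107, 113, 108 and 98.5 in SI_WT. All SI_Con libraries lay above those of GH_Con and SI_EE, by narrow margins. For Smpd1 (chr7:105554360-105558389, plus strand), its F test gave an unadjusted p of 0.134 and an adjusted p of 0.691 (edgeR, Benjamini-Hochberg). Lipa read 17.8, 19.8, 13.4 and 16.98 in GH_Con, 18.5, 22.3, 19.5 and 19.9 in GH_EE, and 17.9, 16.4, 17.1 and 18.2 in GH_WT, in CPM. Lipa levels in the SI groups were 15.2, 17.03, 17.4 and 18.1 in SI_Con, 16.5, 19.6, 20.7 and 21.7 in SI_EE, and 17.4, 20.1, 18.1 and 19.4 in SI_WT. The lowest was GH_Con 3, and GH_EE overlapped GH_Con. For Lipa (chr19:34492318-34527474, minus strand), its F test gave an unadjusted p of 0.133 and an adjusted p of 0.691 (edgeR, Benjamini-Hochberg). Psap read 1546, 1629, 1592 and 1539 in GH_Con, 1509, 1534, 1537 and 1544 in GH_EE, and 1655, 1559, 1588 and 1581 in GH_WT, in CPM. Psap levels in the SI groups were 1598, 1692, 1783 and 1611 in SI_Con, 1461, 1574, 1524 and 1526 in SI_EE, and 1559.96, 1518, 1553 and 1644 in SI_WT. Psap (chr10:60277627-60302597, plus strand) spanned a narrow range, highest in SI_Con 3.

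Of the pump, Atp6v1h read 149, 167, 167 and 148 in GH_Con, 163, 161, 160.2 and 168 in GH_EE, and 164, 159.8, 178 and 159 in GH_WT, in CPM. Atp6v1h levels in the SI groups were 172, 188, 216 and 194 in SI_Con, 121, 177, 164 and 162 in SI_EE, and 178, 176, 173 and 213 in SI_WT. SI_Con lay above GH_Con without overlap, and SI_EE met SI_Con only through SI_EE 2. For Atp6v1h (chr1:5070018-5162529, plus strand), its F test gave an unadjusted p of 0.0357 and an adjusted p of 0.575 (edgeR, Benjamini-Hochberg). Of the membrane proteins, Mcoln1 read 46.4, 46.8, 47.5 and 51.2 in GH_Con, 45.9, 48.6, 45.9 and 51.7 in GH_EE, and 51.96, 45.1, 52.6 and 53.7 in GH_WT, in CPM. Mcoln1 levels in the SI groups were 52.5, 56.6, 76.4 and 53.1 in SI_Con, 63.3, 55.98, 47.2 and 46.97 in SI_EE, and 50.5, 52.1, 51.7 and 66.9 in SI_WT. SI_Con again lay above GH_Con without overlap, and SI_Con 3, a library with lower long genes, was the highest. For Mcoln1 (chr8:3500457-3515232, plus strand), its F test gave an unadjusted p of 0.110 and an adjusted p of 0.673 (edgeR, Benjamini-Hochberg). Lamp1 read 328, 369.5, 329 and 333 in GH_Con, 303, 334, 315 and 289.8 in GH_EE, and 349, 334, 318 and 347 in GH_WT, in CPM. Lamp1 levels in the SI groups were 301, 344, 301 and 301 in SI_Con, 354, 279, 312 and 304 in SI_EE, and 309, 313, 290.5 and 353 in SI_WT. For Lamp1 (chr8:13159161-13175338, plus strand) all groups overlapped, and SI_EE met GH_Con only through SI_EE 1.

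**Figure D2:**
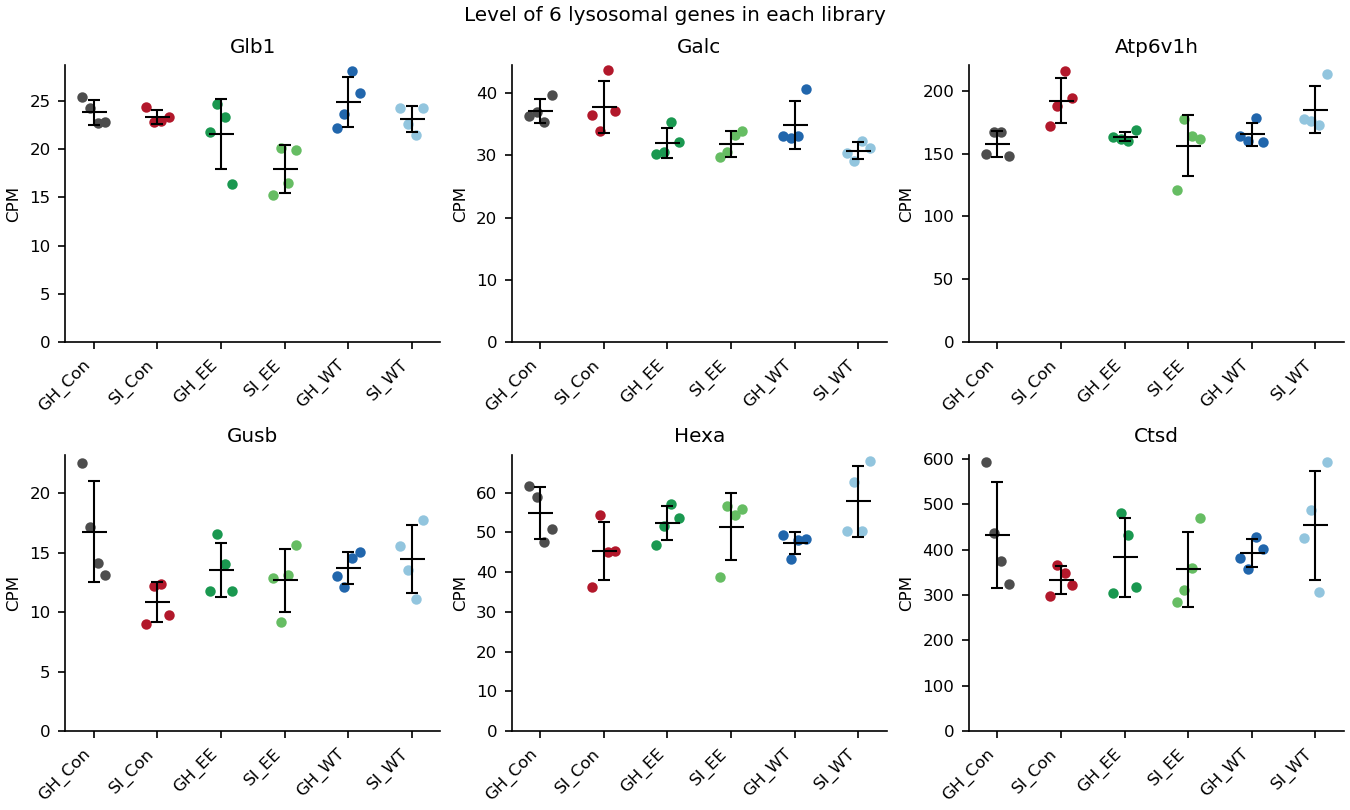
CPM (y axis, from 0) of Glb1, Galc, Atp6v1h, Gusb, Hexa and Ctsd in each library by group (x axis); points are libraries, lines are group means and bars ± 1 SD (n = 4). The 4 SI_EE libraries of Glb1 lie at 15.3 to 20.1, below SI_Con, and Ctsd spreads from 284 to 593 within overlapping groups.

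Among the proteases the spread lay within the groups. In every group the highest library of Ctsd and of Ctss was one marked female. The lowest was marked male, except for Ctsd in SI_Con and Ctss in GH_Con. The part of sex in this spread was not tested. Ctsd read 593, 436, 374 and 325 in GH_Con, 303, 482, 431 and 317 in GH_EE, and 382, 356, 428 and 402 in GH_WT, in CPM. Ctsd levels in the SI groups were 297, 367, 347 and 321 in SI_Con, 284, 311, 359.7 and 469.6 in SI_EE, and 425, 488, 306 and 593 in SI_WT. The highest libraries were GH_Con 1 and SI_WT 4, and every group overlapped every other. Ctsd lies at chr7:142375911-142388038, minus strand. Ctss read 127, 115, 72.7 and 72.8 in GH_Con, 47.8, 90.5, 93.4 and 58.3 in GH_EE, and 72.9, 81.3, 99.8 and 95.3 in GH_WT, in CPM. Ctss levels in the SI groups were 75.3, 90.7, 53.8 and 49.8 in SI_Con, 37.9, 45.03, 71.02 and 99.1 in SI_EE, and 90.2, 95.8, 51.5 and 126 in SI_WT. Ctss spread widely within every group except GH_WT, and the groups overlapped.

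Of the cysteine cathepsins Ctsz and Ctsb, Ctsb spread less than Ctsd and Ctsz slightly more. The coefficient of variation was 7.65% for Ctsb, 22.1% for Ctsd and 25.2% for Ctsz. Ctsz read 64.1, 57.96, 44.05 and 34.7 in GH_Con, 33.7, 46.6, 52.7 and 31.1 in GH_EE, and 39.8, 35.4, 46.6 and 41.8 in GH_WT, in CPM. Ctsz levels in the SI groups were 38.4, 49.9, 46.3 and 36.5 in SI_Con, 36.1, 39.1, 37.7 and 50.3 in SI_EE, and 39.96, 53.2, 41.1 and 81.7 in SI_WT. Ctsz was highest in SI_WT 4 and GH_Con 1, as Ctsd was. Ctsb read 748, 764, 749 and 673 in GH_Con, 665, 746, 712 and 708 in GH_EE, and 734, 653, 739 and 642 in GH_WT, in CPM. Ctsb levels in the SI groups were 699.6, 759, 767 and 730.4 in SI_Con, 595, 705, 649 and 699.6 in SI_EE, and 748, 779.96, 729.99 and 857 in SI_WT. Ctsb was lowest in SI_EE 1 and highest in SI_WT 4. Ctss lies at chr3:95526786-95556403, plus strand, Ctsz at chr2:174427493-174439039, minus strand and Ctsb at chr14:63122462-63145923, plus strand.

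Of the regulators, Tfeb read 7.32, 7.15, 7.38 and 4.88 in GH_Con, 3.42, 8.91, 6.36 and 5.98 in GH_EE, and 6.71, 8.07, 5.09 and 5.64 in GH_WT, in CPM. Tfeb levels in the SI groups were 5.78, 7.16, 8.59 and 6.09 in SI_Con, 12.2, 6.05, 4.87 and 6.61 in SI_EE, and 5.93, 7.32, 5.15 and 4.40 in SI_WT. Tfeb (chr17:47737030-47792419, plus strand) was lowest in GH_EE 1 and highest in SI_EE 1. Grn read 40.6, 36.1, 31.1 and 40.95 in GH_Con, 35.9, 48.5, 54.4 and 36.7 in GH_EE, and 44.7, 42.9, 53.4 and 57.7 in GH_WT, in CPM. Grn levels in the SI groups were 36.9, 37.9, 45.3 and 35.5 in SI_Con, 41.5, 37.4, 48.5 and 35.9 in SI_EE, and 38.5, 36.01, 36.1 and 78.4 in SI_WT. For Grn (chr11:102430315-102437048, plus strand), SI_WT 4 stood above all other libraries, and all GH_WT libraries lay above those of GH_Con.

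Social isolation without treatment was read from SI_Con against GH_Con. The members were split in sign: the log2 fold change was above 0 for 3 of 11 proteases, 4 of 9 glycosidases, 3 of 9 lipid and sulfate enzymes, 1 of 6 membrane proteins, 5 of 6 pump subunits. Over all, the median log2 fold change of the members was -0.029, with 18 of 43 above 0, and that of all genes was 0.0012, with 50.1% above 0. The 5 smallest p belonged to Gusb -0.63 (SE 0.19), Atp6v1h 0.28 (SE 0.10), Mcoln1 0.31 (SE 0.12), Smpd1 0.18 (SE 0.078) and Hexa -0.27 (SE 0.13). Gusb had an unadjusted p of 0.00289 and an adjusted p of 0.525 (edgeR's quasi-likelihood test, Benjamini-Hochberg), and Hexa had 0.0548 and 0.769. For SI_Con against GH_Con, 0 of 43 members passed edgeR's quasi-likelihood test after Benjamini-Hochberg adjustment, against 0% of the 20354 genes tested. Before adjustment, edgeR had 4 members with p under 0.05, against 6.53% of genes, and DESeq2 had 5 (7.59% of genes) and limma-voom 4 (7.02%). After adjustment DESeq2 called 0 members, against 0.162% of genes, and limma-voom 0, against 0%. Without the 4 libraries with lower long genes, 3 of which are in these groups, Gusb was at -0.82 and Mcoln1 at 0.13. Single libraries moved other values. Without GH_Con 1, 24 of 43 members were above 0 with a median of 0.0077, and without SI_Con 1 Hexa was at -0.17. Without SI_Con 3 Mcoln1 was at 0.18 and 3 of 6 membrane proteins were above 0. Beside these values, the 14 plaque-associated microglial markers averaged 3.30 ± 0.95 in GH_Con and 2.43 ± 0.52 in SI_Con (log2 CPM, SD, n = 4), and the 11 homeostatic microglial markers 4.12 ± 0.31 and 3.53 ± 0.57, with overlapping libraries. The 10 myelin markers averaged 7.83 ± 0.19 in GH_Con and 7.35 ± 0.24 in SI_Con, and the 8 astrocyte markers 8.02 ± 0.19 and 7.67 ± 0.14, both without overlap between the libraries. The part of these lists in the result was not tested.

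**Figure D3:**
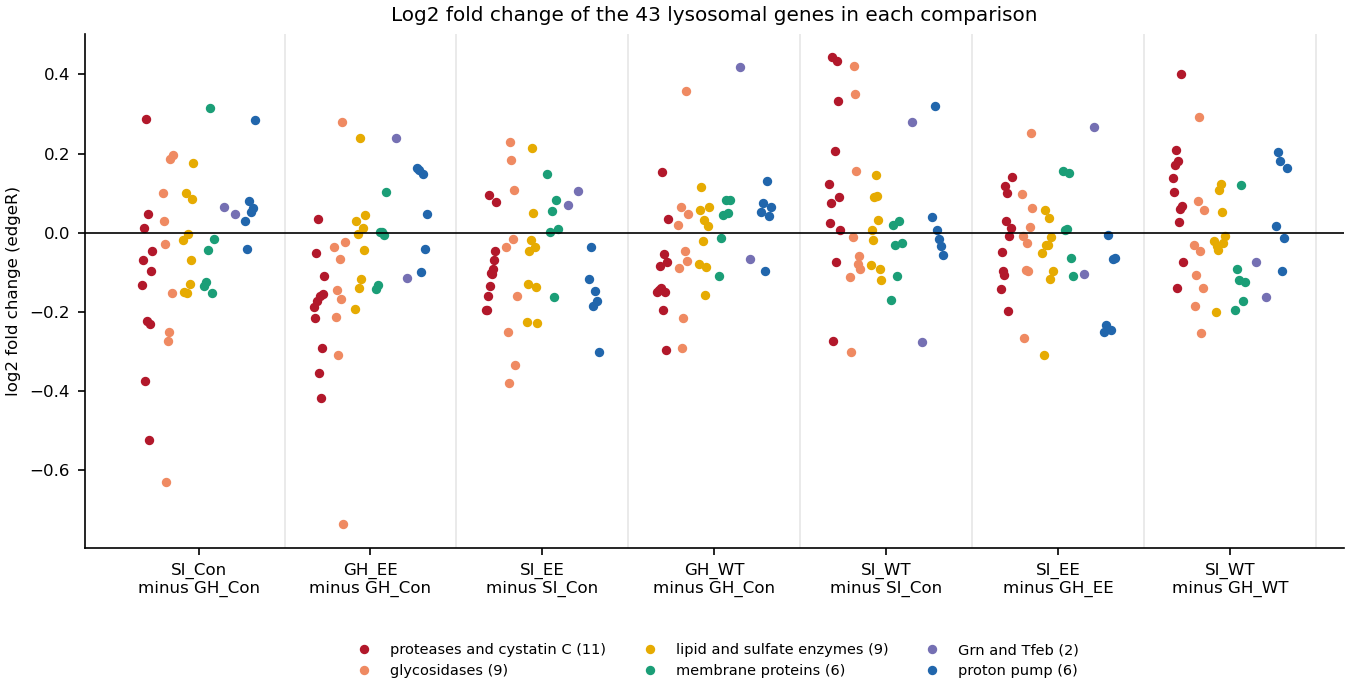
Log2 fold change from edgeR (y axis) of the 43 lysosomal genes in the 7 comparisons between groups (x axis), coloured by class; each point is 1 gene and the line marks 0. The lowest points are Gusb at -0.63 in SI_Con minus GH_Con and Naglu at -0.74 in GH_EE minus GH_Con, and in SI_EE minus SI_Con all 6 pump subunits lie below 0, which for Atp6v0a1 turns to 0.16 without SI_EE 1.

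Enrichment was compared with no treatment in each housing. In GH_EE against GH_Con the log2 fold change was above 0 for 1 of 11 proteases, 1 of 9 glycosidases, 4 of 9 lipid and sulfate enzymes, 3 of 6 membrane proteins, 4 of 6 pump subunits. Over all, the median log2 fold change of the members was -0.066, with 14 of 43 above 0, and that of all genes was -0.022, with 46.4% above 0. The smallest p were those of Galc -0.21 (SE 0.092), Naglu -0.74 (SE 0.33), Lipa 0.24 (SE 0.11), Arsa -0.19 (SE 0.10) and Gusb -0.31 (SE 0.19). Galc had an unadjusted p of 0.0302 and an adjusted p of 0.721 (edgeR's quasi-likelihood test, Benjamini-Hochberg), and Gusb had 0.114 and 0.855. For GH_EE against GH_Con, 0 of 43 members passed edgeR's quasi-likelihood test after Benjamini-Hochberg adjustment, against 0.00491% of the 20354 genes tested. The unadjusted p was under 0.05 for 3 members against 6.32% of genes in edgeR, for 3 against 7.12% in DESeq2 and for 3 against 6.56% in limma-voom. Adjusted, DESeq2 called 0 members and 0.128% of genes, and limma-voom 0 members and 0%. Naglu, with 6.99 CPM on average, was among the lowest members in level. Without GH_Con 1, Gusb was at -0.13. The plaque-associated list averaged 3.30 ± 0.95 in GH_Con and 2.96 ± 0.81 in GH_EE, and its part was not tested.

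In the SI housing, SI_EE against SI_Con gave log2 fold changes above 0 for 2 of 11 proteases, 3 of 9 glycosidases, 2 of 9 lipid and sulfate enzymes, 5 of 6 membrane proteins, 0 of 6 pump subunits. Each of the 6 pump subunits was below 0, with a median of -0.16, but without SI_EE 1, the library lowest in the pump mean, the median was -0.061 and Atp6v0a1 was at 0.16. Without the 4 libraries with lower long genes 6 of 11 proteases were above 0, and without SI_Con 3 alone 1 of 6 membrane proteins. Over all, the median log2 fold change of the members was -0.070, with 14 of 43 above 0, and that of all genes was 0.0056, with 50.7% above 0. Smallest in p were Glb1 -0.38 (SE 0.12), Smpd1 -0.23 (SE 0.078), Atp6v1h -0.30 (SE 0.10), Galc -0.25 (SE 0.092) and Arsa -0.22 (SE 0.10). Glb1 had an unadjusted p of 0.00353 and an adjusted p of 0.202 (edgeR's quasi-likelihood test, Benjamini-Hochberg), and Arsa had 0.0420 and 0.381. For SI_EE against SI_Con, 0 of 43 members passed edgeR's quasi-likelihood test after Benjamini-Hochberg adjustment, against 0% of the 20354 genes tested. Before adjustment, edgeR had 5 members with p under 0.05, against 12.6% of genes, and DESeq2 had 7 (13.4% of genes) and limma-voom 6 (12.4%). After adjustment DESeq2 called 0 members, against 0.855% of genes, and limma-voom 0, against 0%. Without SI_EE 1, Glb1 was at -0.30 and Atp6v1h at -0.19. In SI_EE 1 the 10 neuronal markers averaged 8.49 log2 CPM, against at least 9.05 in every other library, and the cerebellar markers were high. Without the 4 libraries with lower long genes Arsa was at -0.092.

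The difference between the enrichment effects in the 2 housings was tested as an interaction, (SI_EE - SI_Con) - (GH_EE - GH_Con). The smallest p were those of Smpd1 -0.27 (SE 0.11), Atp6v1h -0.35 (SE 0.15), Gusb 0.54 (SE 0.26), Atp6ap1 -0.28 (SE 0.17) and Tpp1 0.19 (SE 0.13). Smpd1 had an unadjusted p of 0.0225 and an adjusted p of 0.565 (edgeR's quasi-likelihood test, Benjamini-Hochberg), and Tpp1 had 0.166 and 0.776. All 6 pump subunits were below 0 here, with a median of -0.24, and without SI_EE 1 the median was -0.099 and Atp6v0a1 was at 0.0017. The interaction shares the SI_EE and SI_Con libraries with the comparison before it. For the housing by enrichment interaction, 0 of 43 members passed edgeR's quasi-likelihood test after Benjamini-Hochberg adjustment, against 0% of the 20354 genes tested. The unadjusted p was under 0.05 for 2 members against 7.74% of genes in edgeR, for 3 against 8.43% in DESeq2 and for 2 against 7.51% in limma-voom. Adjusted, DESeq2 called 0 members and 0.142% of genes, and limma-voom 0 members and 0%. Without SI_EE 1, Atp6v1h was at -0.24, Smpd1 at -0.23 and Tpp1 at 0.12. Without GH_EE 3 Atp6ap1 was at -0.095, and without GH_Con 1 Gusb was at 0.35.

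Isolation under enrichment was read from SI_EE against GH_EE. The log2 fold change was above 0 for 5 of 11 proteases, 4 of 9 glycosidases, 2 of 9 lipid and sulfate enzymes, 4 of 6 membrane proteins, 0 of 6 pump subunits, and the median log2 fold change of the members was -0.031, with 16 of 43 above 0, and that of all genes was 0.019, with 52.9% above 0. Members with the smallest p were Glb1 -0.26 (SE 0.12), Atp6ap1 -0.25 (SE 0.12), Arsb -0.31 (SE 0.18), Atp6v1a -0.24 (SE 0.16) and Tpp1 0.14 (SE 0.092). Glb1 had an unadjusted p of 0.0329 and an adjusted p of 0.553 (edgeR's quasi-likelihood test, Benjamini-Hochberg), and Tpp1 had 0.138 and 0.680. For SI_EE against GH_EE, 0 of 43 members passed edgeR's quasi-likelihood test after Benjamini-Hochberg adjustment, against 0.00491% of the 20354 genes tested. Before adjustment, edgeR had 2 members with p under 0.05, against 8.70% of genes, and DESeq2 had 2 (9.31% of genes) and limma-voom 1 (8.12%). After adjustment DESeq2 called 0 members, against 0.108% of genes, and limma-voom 0, against 0%. These values rested on SI_EE 1 in part. Without it Glb1 was at -0.19, Arsb at -0.13, Atp6v1a at -0.12 and Tpp1 at 0.070, and 3 of 6 pump subunits were above 0, with a median of -0.011. Atp6ap1 rested on GH_EE 3 (250.1 CPM, the other GH_EE libraries 152 to 167). Without that library it was at -0.060, and 22 of 43 members were above 0, with a median of 0.0031.

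The WT arm was compared with the untreated group in each housing. In GH_WT against GH_Con, the median log2 fold change of the members was -0.013, with 21 of 43 above 0, and that of all genes was -0.0062, with 48.6% above 0, and the log2 fold change was above 0 for 2 of 11 proteases, 4 of 9 glycosidases, 5 of 9 lipid and sulfate enzymes, 4 of 6 membrane proteins, 5 of 6 pump subunits. The smallest p were those of Grn 0.42 (SE 0.20), Manba 0.36 (SE 0.18), Hexa -0.21 (SE 0.13), Gusb -0.29 (SE 0.19) and Asah1 0.12 (SE 0.084). Grn had an unadjusted p of 0.0526 and an adjusted p of 0.9999 (edgeR's quasi-likelihood test, Benjamini-Hochberg), and Asah1 had 0.186 and 0.9999. For GH_WT against GH_Con, 0 of 43 members passed edgeR's quasi-likelihood test after Benjamini-Hochberg adjustment, against 0% of the 20354 genes tested. The unadjusted p was under 0.05 for 0 members against 3.42% of genes in edgeR, for 1 against 4.07% in DESeq2 and for 1 against 3.63% in limma-voom. Adjusted, DESeq2 called 0 members and 0.0491% of genes, and limma-voom 0 members and 0%. Without GH_WT 2 and GH_WT 4, the libraries highest in thalamic markers, and SI_EE 1, Manba was at 0.23 and Asah1 at 0.24. Asah1 was at 0.072 without GH_WT 1 and at 0.069 without GH_WT 3. Without GH_Con 1, Gusb was at -0.12, 5 of 11 proteases and 27 of 43 members were above 0, and the members' median was 0.027.

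In the SI housing, SI_WT against SI_Con gave log2 fold changes above 0 for 9 of 11 proteases, 3 of 9 glycosidases, 5 of 9 lipid and sulfate enzymes, 2 of 6 membrane proteins, 3 of 6 pump subunits. For all members together, the median log2 fold change of the members was 0.0063, with 23 of 43 above 0, and that of all genes was -0.0043, with 48.9% above 0. The 5 smallest p were those of Galc -0.30 (SE 0.092), Hexa 0.35 (SE 0.13), Gusb 0.42 (SE 0.19), Ctsd 0.44 (SE 0.20) and Ctsf -0.27 (SE 0.16). Galc had an unadjusted p of 0.00354 and an adjusted p of 1 (edgeR's quasi-likelihood test, Benjamini-Hochberg), and Ctsf had 0.103 and 1. For SI_WT against SI_Con, 0 of 43 members passed edgeR's quasi-likelihood test after Benjamini-Hochberg adjustment, against 0% of the 20354 genes tested. Before adjustment, edgeR had 4 members with p under 0.05, against 3.84% of genes, and DESeq2 had 5 (4.50% of genes) and limma-voom 3 (3.80%). After adjustment DESeq2 called 0 members, against 0.00983% of genes, and limma-voom 0, against 0%. The plaque-associated microglial markers averaged 2.43 ± 0.52 in SI_Con and 3.44 ± 0.65 in SI_WT log2 CPM, and the homeostatic ones 3.53 ± 0.57 and 3.995 ± 0.22, and their part in the values of Ctsd, Gusb and Hexa was not tested. The meningeal markers averaged 2.31 ± 0.11 in SI_Con and 0.94 ± 0.40 in SI_WT without overlap, and their part was not tested either. Without SI_WT 4, Ctsd was at 0.28, 6 of 11 proteases were above 0 and the members' median was -0.036. This comparison and the one between SI_Con and GH_Con share the SI_Con libraries.

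Isolation within the WT arm, SI_WT against GH_WT, gave log2 fold changes above 0 for 9 of 11 proteases, 3 of 9 glycosidases, 3 of 9 lipid and sulfate enzymes, 1 of 6 membrane proteins, 4 of 6 pump subunits. Here the median log2 fold change of the members was -0.014, with 20 of 43 above 0, and that of all genes was -0.0028, with 49.5% above 0. Leading by p were Hexa 0.29 (SE 0.13), Galc -0.18 (SE 0.092), Ctsb 0.17 (SE 0.086), Ctsz 0.40 (SE 0.22) and Atp6v0d1 0.18 (SE 0.11). Hexa had an unadjusted p of 0.0419 and an adjusted p of 0.911 (edgeR's quasi-likelihood test, Benjamini-Hochberg), and Atp6v0d1 had 0.126 and 0.935. For SI_WT against GH_WT, 0 of 43 members passed edgeR's quasi-likelihood test after Benjamini-Hochberg adjustment, against 0% of the 20354 genes tested. The unadjusted p was under 0.05 for 1 member against 5.37% of genes in edgeR, for 2 against 6.28% in DESeq2 and for 1 against 5.12% in limma-voom. Adjusted, DESeq2 called 0 members and 0.0590% of genes, and limma-voom 0 members and 0%. Without SI_WT 4, Ctsz was at 0.13 and Atp6v0d1 at 0.093, and 4 of 11 proteases were above 0, with a median of -0.034. Thalamic and habenular markers did not overlap here, with every GH_WT library above every SI_WT library, and their part was not tested. Without GH_WT 2, GH_WT 4 and SI_EE 1, Ctsb was at 0.081 and Galc at -0.11, and without GH_WT 4 alone Galc was at -0.099.

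The difference between the WT arm's effects in the 2 housings, (SI_WT - SI_Con) - (GH_WT - GH_Con), was also tested. Smallest in p were Hexa 0.57 (SE 0.19), Gusb 0.71 (SE 0.26), Ctsd 0.58 (SE 0.29), Ctsz 0.63 (SE 0.31) and Ctsf -0.43 (SE 0.23). Hexa had an unadjusted p of 0.00723 and an adjusted p of 0.99998 (edgeR's quasi-likelihood test, Benjamini-Hochberg), and Ctsf had 0.0737 and 0.99998. For the housing by WT arm interaction, 0 of 43 members passed edgeR's quasi-likelihood test after Benjamini-Hochberg adjustment, against 0% of the 20354 genes tested. Before adjustment, edgeR had 2 members with p under 0.05, against 4.52% of genes, and DESeq2 had 5 (5.27% of genes) and limma-voom 2 (4.61%). After adjustment DESeq2 called 0 members, against 0% of genes, and limma-voom 0, against 0%. Over all members the value was above 0 for 19 of 43, against 49.6% of all genes. Of these 5 genes, Hexa, Gusb, Ctsd and Ctsz had positive values and Ctsf a negative one, and without the 4 libraries with lower long genes they ran from -0.47 (Ctsf) to 0.79 (Gusb). Without SI_WT 4 alone, Ctsz was at 0.36.

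The library-to-library spread of some members went with microglial markers. For each of 20340 genes, log2 CPM was set against the mean log2 CPM of 14 genes that mark microglia at plaques (Cst7, Trem2, Tyrobp, Itgax, Clec7a, Ccl3, Ccl6, Lpl, Axl, Spp1, Cd68, Cd9, Lyz2 and Apoe). None of the 43 is in that list, though Cd68 and Lyz2 are themselves lysosomal proteins and Apoe is also made by astrocytes. The list mean ran from 1.95 in SI_EE 1 to 4.32 log2 CPM in GH_Con 1, and each of the 6 groups held libraries both below and above 3. It also went with sex: in each of the 6 groups the highest library was marked female and the lowest male. In GH_EE the female libraries were at 3.65 and 3.67 and the male ones at 2.20 and 2.33. The sexes interleaved in SI_WT, where the male SI_WT 2 (3.58) lay above the female SI_WT 1 (3.48). They also did in SI_Con, where the male SI_Con 3 (2.34) lay above the female SI_Con 1 (2.16).

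By this measure 7 of 43 members (16.3%) passed, all with r above 0, against 0.860% of the genes tested with either sign and 0.762% with r above 0. They were 5 of 11 proteases and 2 of 9 glycosidases, and 0 of the 23 genes in the other classes. Pearson's r over 24 libraries was 0.94 for Ctsd, 0.91 for Ctss, 0.87 for Man2b1, 0.85 for Gusb, 0.83 for Ctsh and 0.79 for Ctsz. Each of these 6 had a permutation p of 1e-05, the smallest that 100000 resamples can give, and an adjusted p of 0.00377 (two-sided permutation test, Benjamini-Hochberg over 20340 genes). Spearman's rho for them ran from 0.84 (Ctsz) to 0.93 (Ctsd), with a permutation p of 1e-05 and an adjusted p of 0.00424 each. For Lgmn, which matures several cathepsins, r was 0.68 (permutation p = 0.000210, adjusted p = 0.0307) and rho 0.64 (permutation p = 0.00102, adjusted p = 0.0988), so the rank version missed the threshold. Relations with 3 marker lists were computed in all. The 11 homeostatic microglial markers were not among them. Their mean was also highest in GH_Con 1 (4.51 log2 CPM) and was low in SI_EE 1 (2.96). A relation particular to microglia at plaques therefore cannot be told apart here from one with microglial RNA in general.

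**Figure D4:**
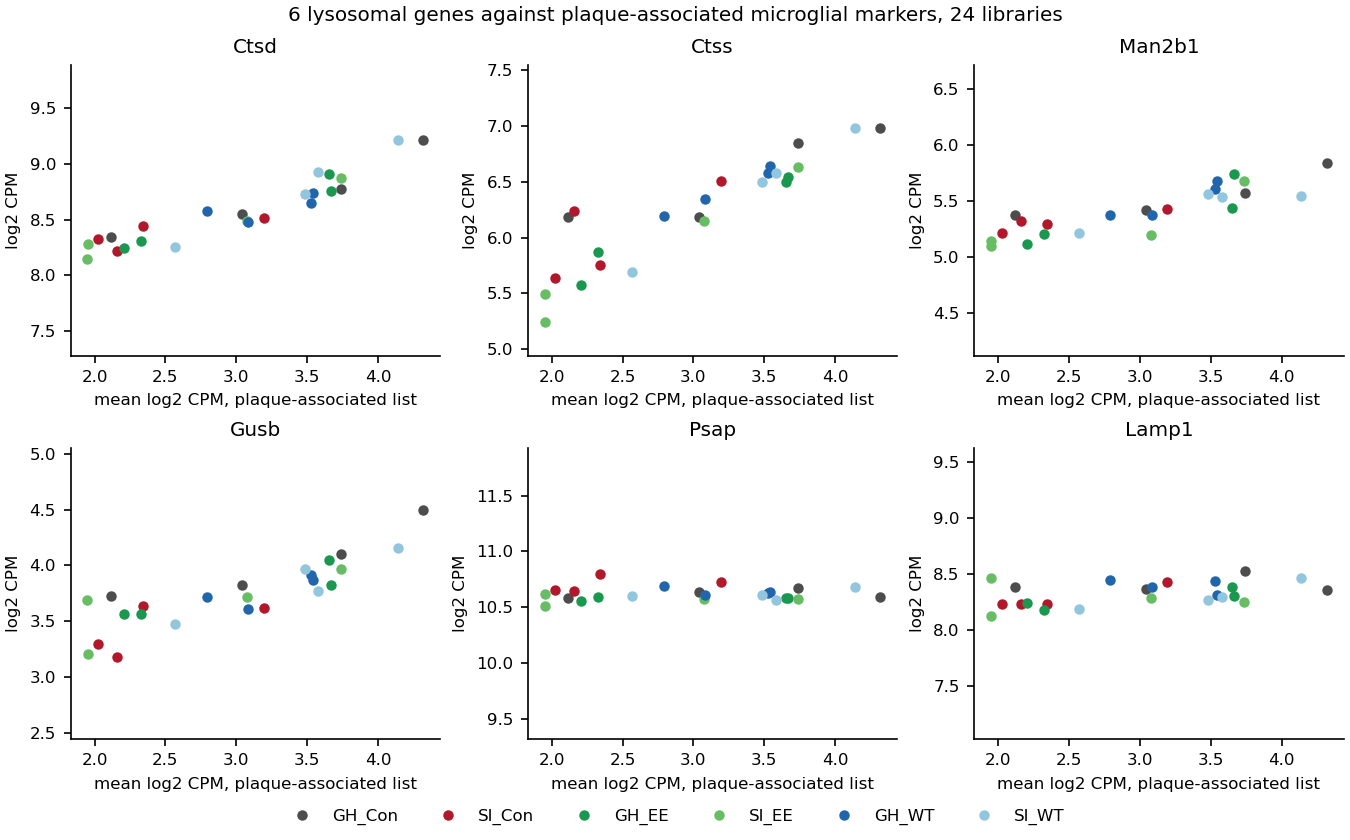
Log2 CPM of Ctsd, Ctss, Man2b1, Gusb, Psap and Lamp1 (y axes, of equal span) against the mean log2 CPM of 14 plaque-associated microglial markers (x axis) in the 24 libraries, coloured by group. Ctsd (r = 0.94) and Ctss (r = 0.91) climb with the markers across all groups, while Psap (r = 0.016) lies flat.

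The relations had the same sign within the groups and within each sex. Deviations from group means still hold the differences between the sexes, and the part of sex in the relations was not tested. As deviations from group means, r was 0.93 for Ctsd, 0.93 for Ctss, 0.87 for Man2b1, 0.86 for Ctsh, 0.85 for Gusb and 0.84 for Ctsz. In the 12 female libraries r for these 6 genes ran from 0.70 (Ctsh) to 0.95 (Ctsd). In the 12 male libraries it ran from 0.52 (Ctsz) to 0.86 (Ctsd), with Gusb at 0.54. Without GH_Con 1 and SI_EE 1, the 2 libraries farthest from the median of the list, it ran from 0.75 (Ctsz) to 0.92 (Ctsd). The same 6 genes passed in each of the 4 versions run across all genes (without those 2 libraries, without SI_EE 1, as deviations, and without the 4 libraries with lower long genes), and Lgmn passed in none of them.

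The 3 of these genes not given by library above spread as follows. Man2b1 (chr8:85083270-85098282, plus strand) ran from 34.1 in SI_EE 1, a median of 42.1 and 57.3 CPM in GH_Con 1. Ctsh (chr9:90054152-90076089, plus strand), a low-abundance aminopeptidase among the cathepsins, ran from 6.21 in SI_Con 4, a median of 9.52 and 16.1 CPM in GH_Con 1. Lgmn (chr12:102394084-102439813, minus strand) ran from 95.01 in GH_EE 4, a median of 109 and 137 CPM in SI_WT 4. Among the 7 genes the 21 pairwise r had a median of 0.80, from 0.61 to 0.89, against a median of 0.12 over the 903 pairs of the 43 genes. These values share libraries and depth and carry no test. The 7 genes were picked for their r with the same list mean in these libraries. High pairwise r among them follows in part from that choice, so the contrast with the 903 pairs is no separate result.

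**Figure D5:**
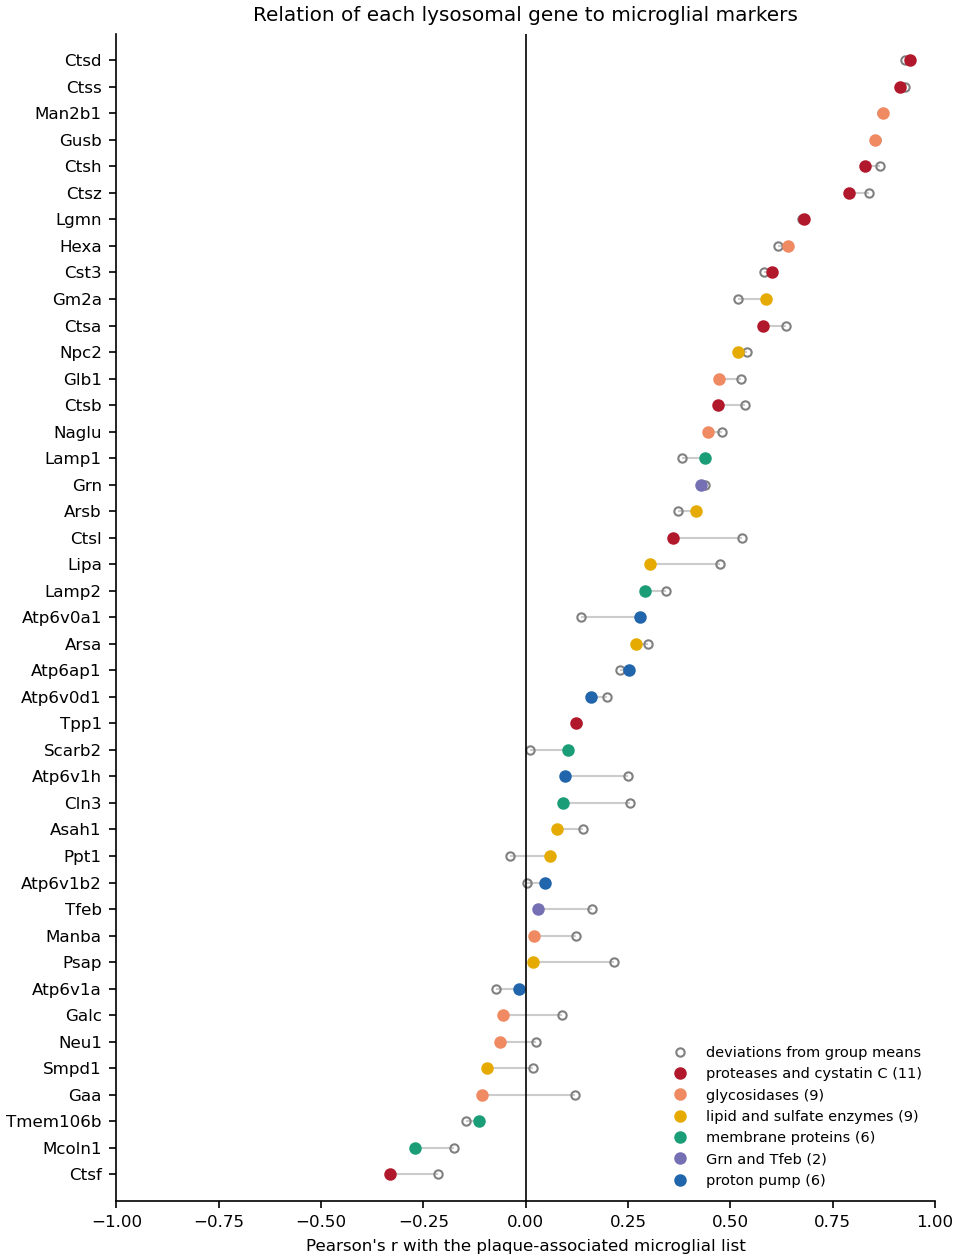
Pearson's r (x axis) of each of the 43 lysosomal genes (rows, ordered by r) with the mean of the plaque-associated microglial list over 24 libraries; filled points, coloured by class, are from log2 CPM and open points from deviations from group means. Proteases fill most of the top rows, and Ctsf at -0.33 and Mcoln1 at -0.27 close the list.

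Members below the threshold formed a graded series, as the plot of r by gene shows. Hexa had r = 0.64 (permutation p = 0.000700, adjusted p = 0.0681), Cst3 0.60 (adjusted p = 0.0964), Gm2a 0.59 and Ctsa 0.58 (adjusted p = 0.156 for both). The membrane proteins Lamp1 and Lamp2 were at 0.44 and 0.29, progranulin at 0.43, and Tfeb at 0.031. The median r was 0.60 for the 11 proteases, 0.45 for the glycosidases, 0.27 for the lipid and sulfate enzymes, 0.13 for the pump and 0.097 for the membrane proteins. Over all 43 it was 0.28, against 0.015 over all genes tested. Of the 7 genes called, Ctsd and Lgmn are among the 14 with CACGTG in a promoter window, and Ctsh has no entry in the promoter table.

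Relations with 2 other cell types were computed in the same way. With the mean of 10 myelin markers, 0 of 43 members passed the permutation test after adjustment, against 1.17% of 20344 genes. The largest r were 0.59 for Ctss (permutation p = 0.00249, adjusted p = 0.0943), 0.54 for Arsb and -0.52 for Mcoln1. Galc, the enzyme of the myelin lipid, had r = 0.11 with this list. With the mean of 10 neuronal markers, 7 of 43 (16.3%) passed, close to the 17.4% of all genes. Of these, 4 had r above 0 (9.29% of all genes) and 3 below 0 (8.14%). Atp6v1b2 (0.82), Atp6v1a (0.74), Atp6v0a1 (0.72) and Arsb (0.69) had positive r. Tpp1 (-0.62), Manba (-0.62) and Ctsf (-0.66) had negative r. These calls rested on SI_EE 1, in which the neuronal list was lowest: without it 0 of 43 passed, and r was 0.60 for Atp6v1b2 and -0.28 for Manba.

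Beyond the 43, a list of 70 other lysosomal genes was examined, of which 69 were tested. In edgeR's quasi-likelihood test 0 of 69 had an adjusted p under 0.05 in any of the 7 comparisons, the 2 interactions or the F test. Their counts at an unadjusted p under 0.05 follow, with the share of all 20354 genes in brackets. They numbered 3 in SI_Con against GH_Con (6.53%), 3 in GH_EE against GH_Con (6.32%) and 10 in SI_EE against SI_Con (12.6%). In GH_WT against GH_Con there were 0 (3.42%) and in SI_WT against SI_Con 0 (3.84%). In SI_EE against GH_EE there were 6 (8.70%) and in SI_WT against GH_WT 2 (5.37%). The smallest p was that of the lysosomal channel Tpcn1 in SI_EE against SI_Con, with a log2 fold change of 0.48 (SE 0.13, adjusted p = 0.178 in edgeR). Next there were the pump subunits Atp6v1c1, at -0.29 (SE 0.099, adjusted p = 0.243 in edgeR), and Atp6v1d, at -0.32 (SE 0.11, adjusted p = 0.245 in edgeR). The 12 pump subunits of this list averaged 7.37 and 7.41 log2 CPM in SI_Con 2 and SI_Con 3, libraries with lower long genes. In SI_Con 1 and SI_Con 4 they averaged 7.09 and 7.25. In SI_Con against GH_Con the smallest p was that of the cysteine protease Ctso, at -0.42 (SE 0.11, adjusted p = 0.469 in edgeR). Values of these other genes without the libraries that stand apart are not given. With the plaque-associated list 2 of 69 passed (2.90%, against 0.860% of all genes), among them Laptm5, a lysosomal membrane protein of the haematopoietic lineage, with r = 0.93 (permutation p = 1e-05 and adjusted p = 0.00377).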

How the data were processed

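The table deposited by the authors holds whole-number read counts per gene in 24 libraries, not normalised: all values are whole and the library sums differ. The build is mm10 in the submitters' processing notes, while aligner, counting tool and strand setting were not given in the sources used here. Symbols were matched for 52073 of 56750 entries, and coordinates and exon lengths come from GENCODE M21 on GRCm38. Counts were fitted with edgeR 4.0.16 (R 4.3.3; filterByExpr, TMM, quasi-likelihood with robust spread, all 24 libraries in 1 fit, group as the only term) and adjusted over 20354 genes by the Benjamini-Hochberg method with a threshold of 0.05. The log2 CPM values used a prior count of 2. At total counts of 33683587 to 51274917 per library, low genes such as Tfeb and Naglu are measured with fewer reads than the other members. The part of depth in their spread was not tested.

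Relations with marker lists used two-sided permutation tests with 100000 resamples. They were adjusted over all genes of each list, although the plan was to adjust over the members' relations alone. Alternatives were DESeq2 1.42.0, its size factors, limma-voom (limma 3.58.1), no filter on low counts, a replicate block, sex as a term, only the compared groups, and libraries left out. The edgeR step was tested on simulated data. Named in each comparison are the 5 members with the smallest p, and levels by library are given for the 8 with the smallest F test p and for Ctsd, Ctsb, Ctss, Ctsz, Lamp1, Tfeb, Grn, Hexa and Psap. Up to 6 other lysosomal genes with the smallest p may be named per comparison. Some items withheld from this account are not reported here. The members and the lists were chosen with earlier results of these data known. Since strand use is unknown, reads of a member and of a gene overlapping it on the other strand cannot be told apart.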

Additional observations from a re-analysis of the deposited data

Results flagged for a closer look

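In groups of 4, a library was marked when the gap to its nearest neighbour exceeded Dixon's critical share of the group's range. This was tested in 138 groups of 4 (16 genes and 7 class means in 6 groups) and marked 11 libraries, where chance marks about 1 in 20 groups.

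SI_WT 4, one of the 4 libraries with lower long genes, was marked for Grn (78.4 CPM, the others 36.0 to 38.5), for Atp6v1h (213 CPM, the others 173 to 178) and for Mcoln1 (66.9 CPM, the others 50.5 to 52.1). SI_EE 1, the library with cerebellar markers, was marked for Hexa (38.8 CPM, the others 54.4 to 56.6). Its class means were also marked, low for the pump (7.71 log2 CPM, the others 8.17 to 8.22) and high for Grn with Tfeb (4.50 log2 CPM, the others 3.92 to 3.95). Lamp1 stood out in GH_Con 2 (369.5 CPM, the others 328 to 333) and in SI_Con 2 (344 CPM, the others 301.1), both of them libraries with lower long genes.

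Galc was high in GH_WT 4 (40.7 CPM, the others 32.8 to 33.1), and Tfeb low in GH_Con 4 (4.88 CPM, the others 7.15 to 7.38). The protease mean was high in SI_EE 4 (6.70 log2 CPM, the others 6.41 to 6.43), where the plaque-associated microglial list was at 3.74 log2 CPM, the highest of its group. SI_EE 4 was also the only library of its group marked female, and GH_Con 4 the only one of its group marked male. What share these library properties have in the marked values was not tested.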

How the results depend on the processing

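The number of members called was 0 in all 7 comparisons, both interactions and the F test, with DESeq2 size factors, without the filter on low counts, with DESeq2, with limma-voom, with sex as a term, with only the compared groups (not run for the F test, where all groups are compared), without the 3 libraries with genes of other regions, without the 4 libraries with lower long genes, and in every fit that left out 1 library (0 to 0). With the replicate block it was also 0. The replicate numbers were not taken to pair the samples: over 28 same-numbered pairs the deviations from group means correlated at -0.284 to 0.182, with 3 pairs over 0.1, and a library correlated best with its own number in 7 cases. The count of members that went with the plaque-associated microglial list was 6 in all 4 alternatives, against 7, Lgmn being the gene lost, and that with the myelin list stayed at 0. With the neuronal list the count of 7 became 0 without SI_EE 1, 0 without SI_EE 1 and GH_WT 4, 3 as deviations from group means and 11 when the 4 libraries low in long genes were left out. The cause was not tested. None of the 5 genes with the smallest p in each contrast turned its direction in these fits, while the pump subunit Atp6v0a1 did without SI_EE 1, to 0.16 in SI_EE against SI_Con and 0.0017 in the interaction. The members' median log2 fold change, at most 0.070 in size, changed sign in 17 of 169 alternative fits, in 7 of 9 contrasts, to values between -0.036 and 0.035. Depth bears mainly on the low genes, and its part in their spread was not tested.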
